A study of Mus musculus with 3 samples.

Results

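The cells described here are the endothelial cells of the mouse mandibular condyle, the cartilage-capped end of the lower jaw that moves in the temporomandibular joint. A kept cell counted as endothelial when it held at least 1 unique molecular identifier (UMI, 1 counted RNA molecule) of at least 2 of the 4 genes Pecam1, Cdh5, Kdr and Emcn, and no UMI of Ptprc, the pan-leukocyte gene. Kept cells had at least 500 detected genes and at most 10% mitochondrial UMIs. The rule found 125 cells among 16589 kept cells: 57 of 4562 from embryonic day 16.5 (E16.5), 40 of 3999 from the day of birth (P0) and 28 of 8028 from mice of 13 weeks (13w).

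The study compared condylar cartilage of wild-type C57BL6 mice at these 3 ages, from the formation of the upper joint cavity through first use of the joint to the adult. Condyles of 7 to 20 mice per age were pooled, digested for 90 minutes with collagenase and dispase, and sorted for live cells by Calcein and DAPI. One droplet library with 3′ UMI counting was made per age, so no value below has a biological replicate. Age, pool and library cannot be told apart, and no p-value is given. Intervals in brackets are exact 95% intervals that cover counting error only.

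Endothelial cells line blood and lymphatic vessels. They hold each other by VE-cadherin junctions, take survival and sprouting signals through VEGF receptors, and differ between arteries, capillaries and veins. Permanent cartilage lacks vessels, while the hypertrophic zone beneath a growing condyle is invaded by them as bone forms, and the fibrous covering and bone below the cartilage carry vessels throughout life.

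Endothelial cells made up 1.25% (0.948 to 1.62) of kept cells in the E16.5 library and 0.349% (0.232 to 0.504) in the 13w library. In the P0 library they were 40 of 3999, with an interval of 0.716% to 1.36%. The E16.5 and P0 intervals overlapped, and that of 13w lay below both. Dissection, digestion and sorting all set such a share, and their part in the difference was not tested. The endothelial cells held 811804, 743410 and 195527 UMIs in all at E16.5, P0 and 13w. Their median was 12266, 11888.5 and 6224 UMIs per cell, against 17494, 17993 and 11038 in the other kept cells of the same libraries. The deepest cell alone gave 8.70%, 15.98% and 12.9% of the endothelial UMIs. Libraries shared 14 kept barcodes between E16.5 and P0, 11 between E16.5 and 13w, and 8 between P0 and 13w. One shared barcode, between E16.5 and P0, was endothelial in at least 1 of these 2 libraries.

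The 4 genes of the rule are given as a description, since they chose the cells. Pecam1, a junctional adhesion molecule, was seen in 57 of 57, 39 of 40 and 27 of 28 cells at E16.5, P0 and 13w. Cdh5, which encodes VE-cadherin, was seen in 52, 39 and 22 cells. Kdr, the main signalling VEGF receptor, was seen in 51, 34 and 22 cells, and the sialomucin gene Emcn in 53, 39 and 22. All 4 genes were present together in 47, 33 and 14 cells. Exactly 3 were present in 5, 5 and 9 cells, and exactly 2, the least the rule allows, in 5, 2 and 5 cells. Just outside the rule, 225, 194 and 88 cells without Ptprc held exactly 1 of the 4 genes.

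The label was checked on 16 other endothelial markers that the rule did not use, among them Cldn5, Tie1, Esam, Egfl7 and Plvap. The cells carried a median of 14, 14 and 12 of these 16 at E16.5, P0 and 13w. Cells with 3 or 4 rule genes carried at least 7, 9 and 8 of them. Cells just outside the rule, with 1 rule gene, carried a median of 2, 1 and 1 and at most 5, 5 and 6. The 12 cells with exactly 2 rule genes were mixed, and 9 of them carried fewer than 6 other markers. In all, 116 of the 125 cells carried 6 or more.

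**Figure D1:**
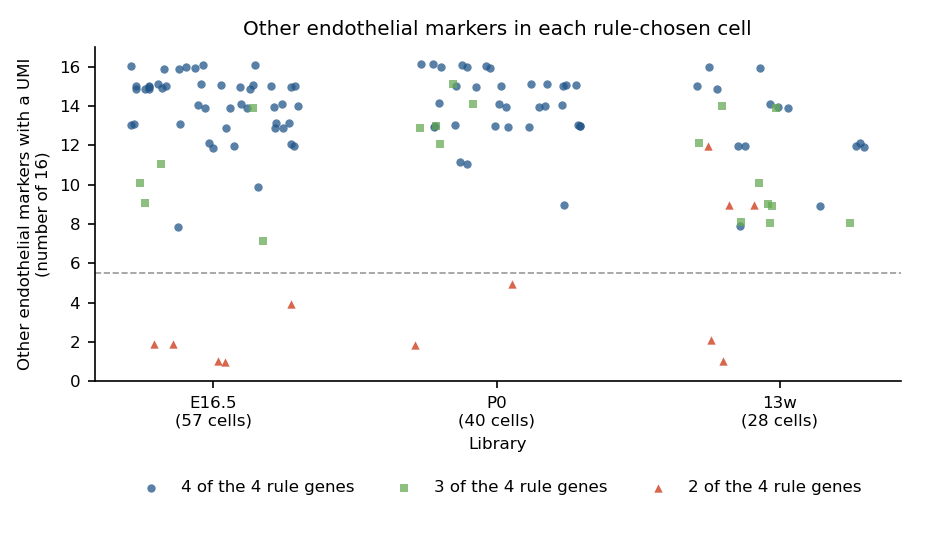
Number of the 16 other endothelial markers with at least 1 UMI (vertical axis) in each of the 125 cells, by library (horizontal axis, points spread sideways); the symbol gives the number of rule genes and the dashed line lies between 5 and 6 markers. The 9 cells under the line (5, 2 and 2 from the E16.5, P0 and 13w libraries) all held exactly 2 rule genes.

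Markers of other cell types were counted in the same cells. Chondrocyte genes (9 genes, such as Col2a1 and Acan) summed to 2354, 13926 and 1181 CPM (UMIs of a gene per 1000000 UMIs of the group) in the endothelial cells, against 11172, 29632 and 30673 in the other kept cells. A few cells held most of them: 1 cell at E16.5 and 4 at P0 had 100 or more Col2a1 UMIs. At 13w no cell reached that, but Col2a1 was seen in 25 of 28 cells at a median of 3 UMIs. Fibroblast genes summed to 910, 3980 and 5580 CPM, and 2 cells at 13w held 50 or more Dcn UMIs. Mural genes summed to 240, 447 and 450 CPM, against 364, 775 and 522 in the other kept cells, and had UMIs in 22, 20 and 11 cells. The pericyte gene Rgs5 was present in 1 cell at E16.5 (76 UMIs) and 1 cell at P0 (66 UMIs), and it was absent at 13w. The smooth muscle gene Myh11 was absent at E16.5 and at 13w. At 13w, 5 of the 10 mural genes had UMIs. Of these genes, Acta2 and Tagln were at least 2-fold higher at 13w than at P0, and Cspg4 was lower. Neutrophil genes summed to 3.70, 0 and 46.0 CPM. Macrophage and monocyte genes summed to 7.39, 14.8 and 25.6 CPM, in 6, 8 and 4 cells, with Adgre1 at 0 in all 3 libraries. Some lists stood above the other kept cells. Among them were muscle genes at E16.5, at 121 against 20.8 CPM, in 6 cells with a highest value of 2991 CPM. Of the mast cell genes only Kit had UMIs at 13w, at 66.5 CPM against 1.90 CPM for the list in the other cells.

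Each comparison was therefore also made on a stricter set of 51, 35 and 25 cells, defined after seeing the data: at least 6 other endothelial markers, fewer than 100 Col2a1 UMIs and fewer than 50 Dcn UMIs. In the strict set, chondrocyte genes summed to 211, 611 and 963 CPM and fibroblast genes to 465, 1274 and 1012 CPM. Mural genes summed to 55.4, 141 and 217 CPM there. The strict set did not remove the muscle genes at E16.5 (141 CPM) or Kit at 13w (80.7 CPM). In the strict set, 12.2% of measured genes were at least 2-fold higher and 7.8% lower in the P0 library than in the E16.5 library, and 10.3% were higher and 7.46% lower in the 13w library than in the P0 library. Strict-set values are given beside many of the results they bear on, and a result without one was not always the same in the strict set.

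To see what these cells shared beyond the rule, their summed UMIs were compared with those of all other kept cells of the same library. With genes counted as measured at 100 CPM or more in the higher group, 16.3%, 17.7% and 25.2% of measured genes were at least 2-fold higher in endothelial cells at E16.5, P0 and 13w, and 12.3%, 9.2% and 14.4% were at least 2-fold lower. Since the cells were chosen by expression, this comparison is a description. The 15 genes with the largest minimum ratio over the 3 libraries were Tie1, Adgrl4, Myct1, Cldn5, Ptprb, Ecscr, Flt1, Cyyr1, Cd93, F11r, Ctla2a, Plvap, Rasip1, Esam and Entpd1. Tie1, an orphan receptor of the angiopoietin system, stood at 124, 143 and 184 CPM, against 0.0401, 0.0322 and 0.0177 in the other cells. Adgrl4, an adhesion receptor of endothelium, stood at 107, 202 and 588 CPM. Ptprb, the endothelial receptor phosphatase that acts on Tie2 and VE-cadherin, stood at 149, 400 and 731 CPM, with at most 0.150 in the other cells. Flt1, the VEGF receptor that also acts as a decoy, stood at 445, 527 and 1069 CPM. Plvap, which forms the diaphragms of fenestrae and caveolae, stood at 578, 890 and 813 CPM. All but Cldn5, Ecscr, F11r, Plvap, Rasip1 and Esam of these 15 were higher at each later age, at counts of 28 or more UMIs per library.

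Regulatory sequence was available for 10 of these 15 genes, as the 250 bases before the first listed start in RefSeq (build GRCm38.p6). ETS factors such as Erg and Fli1 act on endothelial promoters through sites with a GGAA core, so the letters AGGAAG and CGGAAG were searched on both strands. The 2 motifs share their last 5 letters and cannot start at the same base. Of the 10 promoters, 6 (60%) held a match, against 39.0% of 27025 genes with a listed start. Such a match is a description of the letters and shows no binding. The promoters of Tie1 and Flt1 are shown because each held 2 matches, in capitals, written 5′ to 3′ on the gene's strand. The Tie1 stretch lies on the minus strand at chr4:118489850-118490099 and that of Flt1 on the minus strand at chr5:147726012-147726261.
Tie1: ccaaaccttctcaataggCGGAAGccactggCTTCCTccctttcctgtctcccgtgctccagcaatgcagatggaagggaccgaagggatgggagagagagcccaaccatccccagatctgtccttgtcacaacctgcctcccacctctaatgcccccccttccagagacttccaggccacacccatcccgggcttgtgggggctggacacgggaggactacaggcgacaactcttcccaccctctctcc
Flt1: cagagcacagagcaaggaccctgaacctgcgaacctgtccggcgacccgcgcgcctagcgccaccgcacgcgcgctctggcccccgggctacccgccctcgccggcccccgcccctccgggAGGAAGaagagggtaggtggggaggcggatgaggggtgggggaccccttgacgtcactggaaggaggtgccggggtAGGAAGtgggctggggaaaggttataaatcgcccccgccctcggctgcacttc

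Between ages, a gene was counted as higher or lower when it reached 100 CPM in the higher library and differed at least 2-fold. From E16.5 to P0, 11.6% of 1942 measured genes were higher at P0 and 7.52% were lower. From P0 to 13w, 11.7% of 2009 were higher at 13w and 9.76% were lower. These shares over all measured genes are called the background below. The median log2 ratio over all measured genes was -0.09 and 0.02. In the other kept cells the shares were 7.21% and 5.83% for P0 against E16.5, and 10.5% and 8.32% for 13w against P0. The split depended on scaling: with TMM factors the log2 ratios moved by 0.11 for P0 against E16.5 and by -0.20 for 13w against P0. The higher genes then made up 70.8% of those past 2-fold at P0, in place of 60.8%, and 36.5% at 13w, in place of 54.5%. With median-of-ratios factors the shares were 69.3% and 39.8%. The 2 comparisons share the P0 library.

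**Figure D2:**
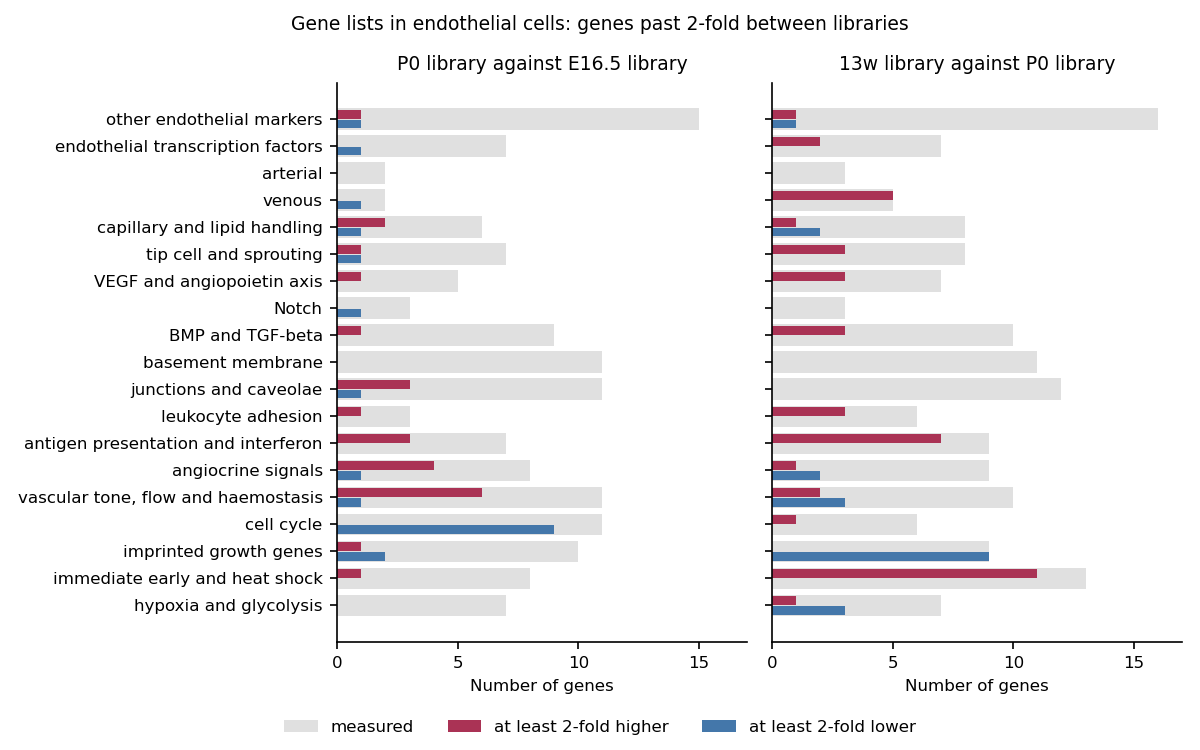
For each gene list (rows), the number of measured genes (grey bars) and of genes at least 2-fold higher (red) or lower (blue) in endothelial cells, for P0 against E16.5 (left) and 13w against P0 (right). Cell cycle genes were lower at P0 than at E16.5 in 9 of 11 cases (4 of 11 with equal weight per cell), and imprinted growth genes were lower at 13w than at P0 in 9 of 9.

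Of the 16 other markers, 15 were measured between E16.5 and P0: Podxl, a sialomucin of the vessel lumen, was higher and Cldn5, the claudin of endothelial tight junctions, was lower. Podxl stood at 97.3, 203 and 378 CPM. Cldn5 stood at 276, 129 and 215 CPM and was seen in 42 of 57, 19 of 40 and 9 of 28 cells. Its log2 ratio at P0 to E16.5 was -1.10 (-1.46 to -0.74), but -0.69 in the strict set, short of 2-fold. Between P0 and 13w, Flt1 was higher, with a log2 ratio of 1.02 that fell short of 2-fold in the strict set at 0.79. Ramp2, the adrenomedullin receptor partner needed for vessel integrity, was lower, at 790, 815 and 378 CPM. Over all measured genes, 19.2% and 21.5% passed 2-fold in either direction in the 2 comparisons.

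Among endothelial transcription factors, 7 were measured in each comparison. Sox18, a SoxF factor of vessel and lymphatic development, was the only one past 2-fold from E16.5 to P0. It stood at 168, 68.6 and 199 CPM, so it was lowest at P0, and its log2 ratio of -1.29 at P0 to E16.5 was -0.89 in the strict set. At 13w against P0, Sox18 and Ets2 were higher. Ets2 rested on 1 cell, which held 34 of its 57 UMIs at 13w, and its log2 ratio of 1.03 was -0.08 without that cell. Without the cell with the most Sox18 UMIs, its log2 ratio was 0.91, short of 2-fold. In the strict set 2 of 9 factors were higher and none was lower at P0 than at E16.5, and 1 of 9 was higher and 1 lower at 13w than at P0. The background of higher and lower genes was 11.6% and 7.52% at P0, and 11.7% and 9.76% at 13w. In the strict set it was 12.2% and 7.8% at P0, and 10.3% and 7.46% at 13w. The ETS factors Erg (70.2, 114 and 153 CPM) and Fli1 (121, 106 and 102 CPM) stayed within 2-fold between neighbouring ages, as did Ets1 (292, 268 and 373 CPM). Sox17, another SoxF factor, stood at 45.6, 99.5 and 123 CPM.

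Among capillary genes, Gpihbp1 differed most. Gpihbp1 anchors lipoprotein lipase on the capillary lumen. It stood at 468 (422 to 518), 788 (726 to 855) and 51.1 CPM (24.5 to 94.1) in the 3 libraries in order of age, and it was at or below 0.0401 CPM in the other cells of every library. It was seen in 44 of 57, 37 of 40 and 5 of 28 cells. Per cell it ran from 0 through a median of 383 to 2585 CPM at E16.5, from 0 through 650 to 4663 at P0, and from 0 through 0 to 849 at 13w. The ranges overlapped, while the 13w median lay at 0. With every cell thinned to 3000 UMIs, it was seen in 55.6% (41.4 to 69.1), 71.8% (55.1 to 85.0) and 9.09% (1.12 to 29.2) of cells. The log2 ratio of 13w to P0 was -3.95 (-5.01 to -3.06), and -4.20 in the strict set. That of P0 to E16.5 was 0.75, and 1.04 in the strict set, where it passed 2-fold.

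The rest of the capillary and lipid list was mixed. Of 6 measured genes, 2 were higher at P0 than at E16.5 and 1 was lower, and the sign of the list's median depended on the scaling. Background shares were 11.6% and 7.52%, and the strict set gave 3 of 6 higher and 1 lower. Aqp1, a water channel, stood at 64.1, 373 and 522 CPM, and Cd300lg, a capillary mucin-like receptor, at 40.7, 147 and 118 CPM. The fatty acid binding protein gene Fabp5 stood at 777, 207 and 81.8 CPM, and it was also lower with age in the other cells (505, 180 and 53.0 CPM). Fabp4, its relative in capillaries, was at similar summed levels at P0 and 13w (839 and 829 CPM), yet it was seen in 31 of 40 cells at P0 and in 6 of 28 at 13w. Of those 6 cells at 13w, 5 also held Cd36, a fatty acid transporter, and none of the other 22 cells did. At 13w against P0, 1 of 8 measured genes was higher (Lpl) and 2 were lower (Gpihbp1 and Fabp5). Lpl rested on 1 cell with 24 of 34 UMIs, and it reached 100 CPM in no library of the strict set.

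**Figure D3:**
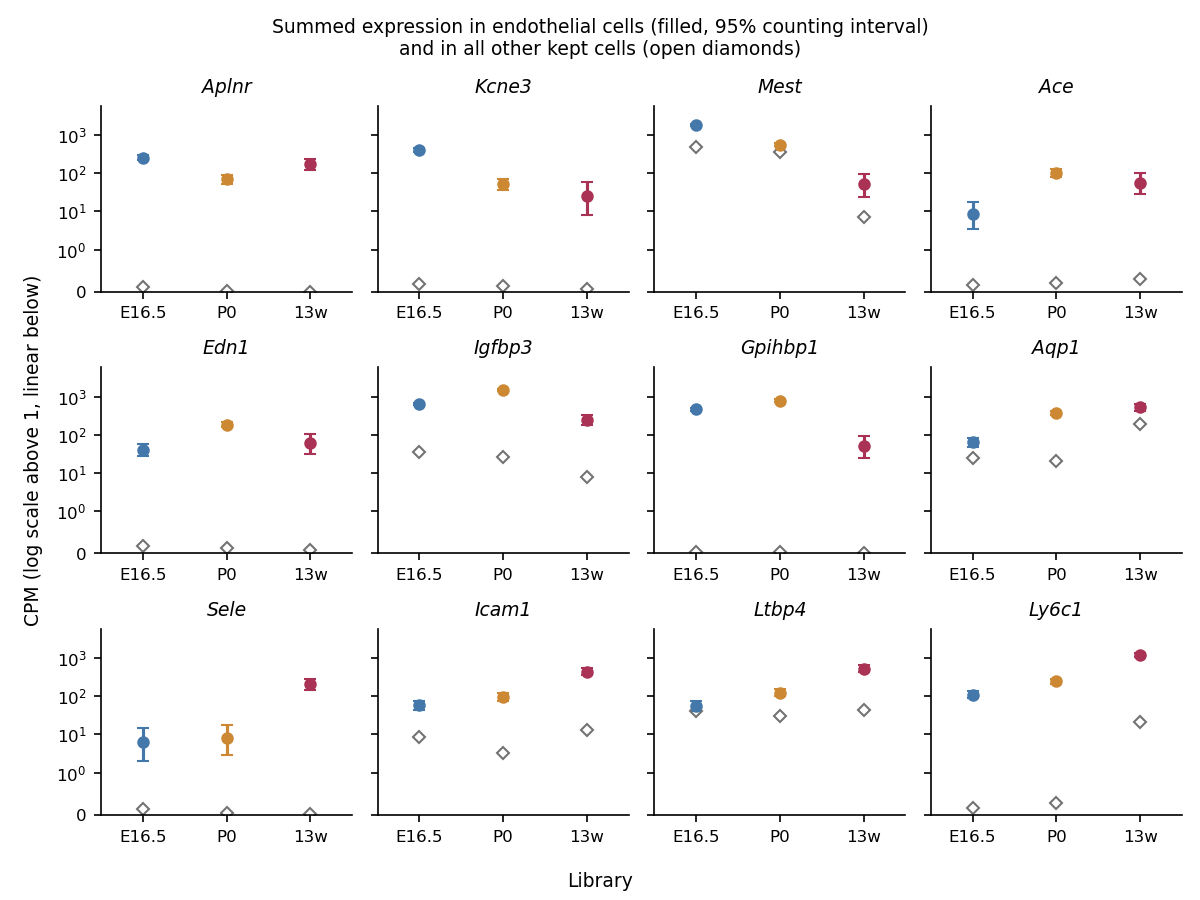
Summed expression of 12 genes in endothelial cells by library, in CPM on an axis that is logarithmic above 1 (filled points, bars for the 95% counting interval), with the other kept cells as open diamonds. Gpihbp1 was at 788 CPM at P0 and 51.1 at 13w, while Ly6c1 stood at 110, 246 and 1227 CPM.

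Venous genes were higher in the adult library. All 5 measured venous genes were at least 2-fold higher at 13w than at P0, with a list median log2 ratio of 1.65, and 4 of 5 in the strict set. With TMM factors 4 of 5 passed, without Nr2f2, and without the cells of the highest Scrublet scores (a score for droplets with more than 1 cell) the Lrg1 log2 ratio was 0.96. The background was 11.7%. Sele, an adhesion molecule of activated and venular endothelium, stood at 6.16, 8.07 and 210 CPM and was seen in 4, 3 and 6 cells. Vcam1, which binds leukocyte integrins, stood at 11.1, 5.38 and 245 CPM, in 7, 3 and 5 cells. Nr2f2, the transcription factor that sets vein identity, stood at 106, 51.1 and 102 CPM, so its higher level at 13w than at P0 matched that at E16.5. Nrp2, a co-receptor for VEGF-C, stood at 140, 78.0 and 245 CPM, and Lrg1, a secreted glycoprotein of venules, at 13.6, 48.4 and 133 CPM.

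Selectin and adhesion genes were also counted together cell by cell. A group defined after seeing the values, with at least 2 of Selp, Sele, Vcam1 and Vwf, held 2 of 57, 2 of 40 and 5 of 28 cells. Of the 5 at 13w, 4 held Nr2f2, 5 held the adhesion gene Icam1, and none held Gpihbp1. Among the other 23 adult cells, 6 held Nr2f2, 11 held Icam1 and 5 held Gpihbp1. Median depth was 7665 and 5660 UMIs in the 2 adult groups. At E16.5 and again at P0, 1 of the 2 cells with these genes held Gpihbp1.

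On the arterial list, 2 genes were measured from E16.5 to P0 and 3 from P0 to 13w, and none passed 2-fold in either comparison. At P0, 2 of 3 were at least 2-fold higher in the strict set, against 12.2% of all measured genes of that set. Gja4, a gap junction gene of arteries singled out after its values were seen, was present in 8 of 57, 6 of 40 and 3 of 28 cells. At E16.5 these cells seldom held Aplnr, the apelin receptor of veins and sprouts: 2 of the 8 did, against 42 of the other 49. None of the 8 held Nr2f2, against 29 of the other 49. The E16.5 cells with Gja4 were the deeper ones, at a median of 15503 UMIs against 11386. Hey1, a Notch target of arteries, was present in 5 of the 8 and 6 of the other 49. The later libraries did not repeat all of this. At P0, 4 of the 6 cells with Gja4 held Nr2f2, against 11 of the other 34, and at 13w 0 of 3 against 10 of 25. Aplnr was in 1 of 6 and 14 of 34 at P0, and in 1 of 3 and 9 of 25 at 13w. For Hey1 the counts were 2 of 6 and 1 of 34 at P0, and 0 of 3 and 2 of 25 at 13w. Cells with Gja4 were also the deeper ones at P0, at a median of 20461.5 UMIs against 10961.5. At 13w they were the shallower ones, at 2590 against 6293. The cells were not thinned for these counts, and the part of depth in them was not tested.

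Cxcl12, a chemokine of arterial endothelium and stroma, was spread over more cells at the later ages. It was seen in 6 of 57, 10 of 40 and 18 of 28 cells, and summed to 139, 245 and 445 CPM. At E16.5, 95 of its 113 UMIs came from 1 cell, and at P0 112 of 182. At 13w no cell held more than 16 of 87 UMIs. With every cell thinned to 3000 UMIs it was seen in 3.70% (0.452 to 12.7), 15.4% (5.86 to 30.5) and 45.5% (24.4 to 67.8) of cells. The other kept cells went the opposite way, with 10.8%, 2.55% and 0.534%, so at E16.5 the endothelial share was not above that of the other cells. The adult cells with Cxcl12 were not the deeper ones, with a median of 5392 UMIs against 8003.

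**Figure D4:**
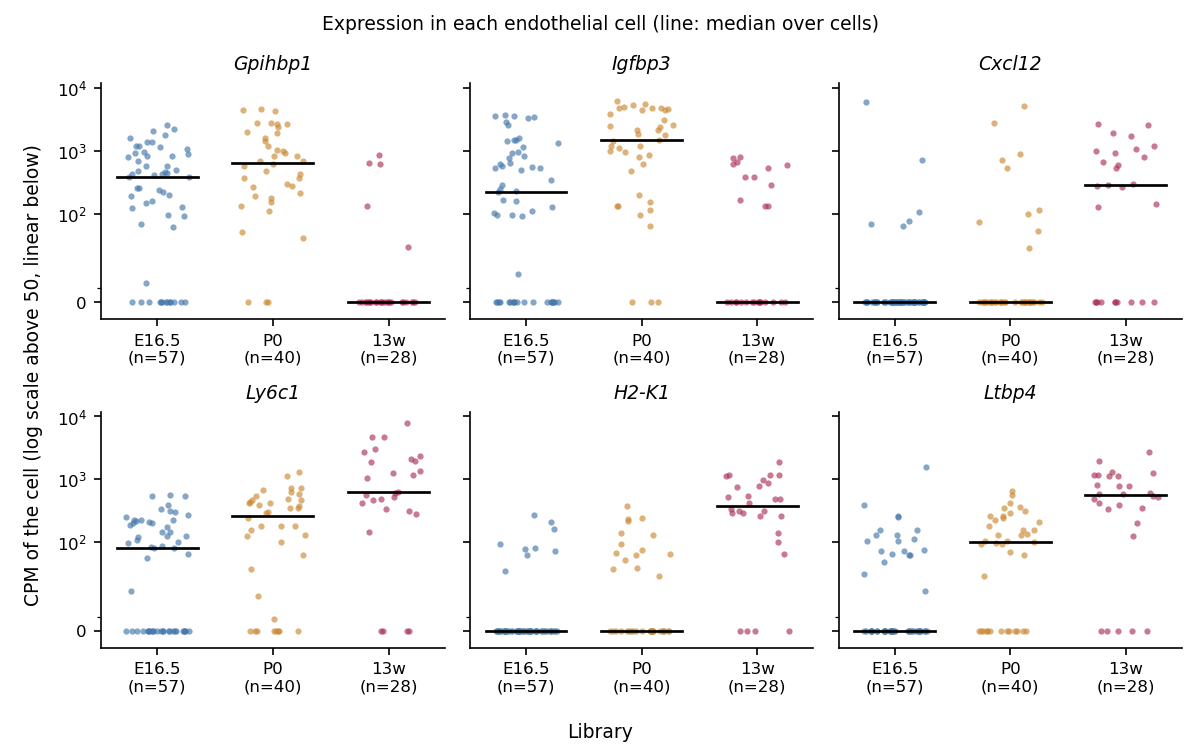
CPM of 6 genes in each endothelial cell (points, axis logarithmic above 50 and linear below) by library, with the median over cells as a black line. At 13w the medians of Gpihbp1 and Igfbp3 were 0, while those of Cxcl12, Ly6c1, H2-K1 and Ltbp4 were 281, 618, 381 and 563 CPM.

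Lymphatic identity was checked on Prox1, the transcription factor of lymphatic endothelium. Prox1 was seen in 1, 2 and 0 cells with 2, 2 and 0 UMIs. The lymphatic list had no measured gene in either comparison, and the same held for the sinusoidal list. Lyve1, known from lymphatic vessels, liver sinusoids and macrophages, was seen in 2 of 57, 13 of 40 and 0 of 28 cells. The 0 of 28 allows a share of cells with a UMI of up to 10.7% (3 of 28), which does not limit cells that express the gene. Thinned to 3000 UMIs, the shares were 3.70%, 15.4% and 0%, with intervals that overlapped. Of the 13 cells at P0, which were singled out after seeing the values, 1 held Prox1, 0 held Mmrn1 and 0 held the macrophage gene Mrc1. Bmp6, a bone morphogenetic protein, was present in 7 of them and in 7 of the other 27. The sprouting gene Esm1 was present in 10 of the 13 and in 11 of the other 27, at median depths of 14463 and 10581 UMIs.

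The tip cell list holds genes of sprouting vessels. Of 7 measured genes of the tip cell list, 1 was higher at P0 than at E16.5 and 1 was lower, and in the strict set 3 of 8 were higher and 1 was lower. The shares over all genes were 11.6% and 7.52%. Pdgfb, which draws pericytes to sprouts, stood at 138, 323 and 302 CPM. Aplnr stood at 259, 69.9 and 174 CPM, and it was seen in 44 of 57, 15 of 40 and 10 of 28 cells. Apln, the ligand of that receptor and a marker of tip cells, stood at 103, 194 and 302 CPM, but at 13w 45 of its 59 UMIs lay in 1 cell. Kcne3, a potassium channel subunit known from tip cells, stood at 403, 51.1 and 25.6 CPM, with 28, 12 and 1 cells holding it.

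At 13w against P0, 3 of 8 measured genes of that list were higher, against a background of 11.7%. Among them were Esm1 and Pgf, and both of these rested on 1 cell. Esm1, a secreted proteoglycan induced by VEGF, had 54 of 85 UMIs in 1 cell, and without it the log2 ratio went from 1.08 to -0.18. Pgf, the placental growth factor that binds Flt1, had 45 of 54 UMIs in 1 cell, and without it the ratio went from 3.10 to 0.71. Aplnr, with a log2 ratio of 1.31 (0.65 to 1.96), had no cell above 7 of 34 UMIs, but without the highest Scrublet scores its ratio was 0.85.

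Of the VEGF and angiopoietin axis, receptors were measured and ligands mostly were not. Ptprb was the only 1 of 5 measured genes past 2-fold at P0 against E16.5, with a log2 ratio of 1.42 (1.11 to 1.74). Of 7 measured at 13w against P0, Flt1, Nrp2 and Pgf were higher, and 2 of 7 were in the strict set. Background shares of higher genes were 11.6% at P0 and 11.7% at 13w. Tek, the angiopoietin receptor, stood at 77.6, 75.3 and 138 CPM, and the co-receptor Nrp1 at 310, 225 and 435 CPM. Vegfa was at 18.5, 8.07 and 10.2 CPM, below its level in the other cells (40.7, 18.8 and 51.5 CPM).

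Of Notch genes, few were measured. Hes1, a transcriptional repressor downstream of Notch, was the only 1 of 3 measured genes past 2-fold, at 294, 129 and 210 CPM. Its log2 ratio of -1.19 at P0 to E16.5 was -0.79 in the strict set. Over all measured genes, 7.52% were lower in that comparison. Notch1 stood at 144, 141 and 199 CPM, and the ligand gene Dll4 at 66.5, 56.5 and 102 CPM.

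In the BMP and TGF-beta pathway, a few targets and regulators passed 2-fold and the receptors named here did not. Ltbp4, which binds latent TGF-beta in elastic matrix, stood at 55.4 (40.4 to 74.2), 125 (101 to 153) and 532 CPM (435 to 644) in order of age. Per cell it ran from 0 through a median of 0 to 1592 CPM, from 0 through 102 to 654, and from 0 through 563 to 2713. In the other kept cells it stood at 40.0, 31.1 and 43.1 CPM. Ltbp4 was the only 1 of 9 measured genes past 2-fold at P0 and 1 of 3 of 10 at 13w, with Smad1 and Id3. Background shares of higher genes were 11.6% and 11.7%. The strict set gave 1 of 10 higher and 1 lower at P0, and 2 of 10 higher at 13w. Smad1, the BMP effector, had 19 of 39 UMIs in 1 cell at 13w, and its log2 ratio of 1.48 was 0.72 without it. Id3, a BMP target, stood at 766, 588 and 1181 CPM, and fell short of 2-fold in the strict set (0.74). The co-receptor gene Eng stood at 289, 421 and 624 CPM and the type II receptor gene Bmpr2 at 148, 208 and 271 CPM.

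The basement membrane is the matrix sheet under the endothelium. None of 11 measured genes passed 2-fold in either comparison, with list medians of 0.62 and -0.27 log2 units. At P0, 3 of 11 were at least 2-fold higher in the strict set, against 12.2% of all measured genes of that set. Col4a1, Col4a2 and Hspg2 passed 2-fold with TMM factors. With equal weight per cell, 4 of 12 were lower at 13w than at P0, with a median of -0.73. Col4a1, the main network collagen, stood at 2103, 3986 and 2445 CPM, against 50.8, 74.1 and 70.1 in the other cells. Its partner Col4a2 stood at 1013, 1969 and 1304 CPM. Both were highest at P0, and their log2 ratios at P0 to E16.5 (0.92 and 0.96) lay just under 2-fold. Col15a1, of the zone around capillaries, stood at 420, 713 and 557 CPM.

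Junction and caveola genes link endothelial cells and shape their membrane. Of 11 measured genes, 3 were higher at P0 than at E16.5 and Cldn5 was lower. Background shares were 11.6% and 7.52%, and the strict set gave 4 of 11 higher and none lower. Jam2, a junctional adhesion molecule, stood at 54.2, 112 and 215 CPM, the gap junction gene Gja1 at 78.8, 183 and 256 CPM, and Cavin1, a coat protein of caveolae, at 238, 491 and 424 CPM. Without the cell with the most UMIs, the log2 ratios of Cavin1 (0.95) and Jam2 (0.86) at P0 to E16.5 fell short of 2-fold. None of 12 passed 2-fold at 13w against P0, and 2 of 12 were higher with equal weight per cell. Ocln, the tight junction gene of barrier vessels, was seen in 1, 1 and 0 cells.

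Among leukocyte adhesion genes, 1 of 3 measured genes was higher at P0 (the tetraspanin gene Cd9) and 3 of 6 at 13w. Background shares were 11.6% and 11.7%, and the strict set also had 1 of 6 lower at 13w. Icam1, a ligand of leukocyte integrins, stood at 57.9 (42.5 to 77.0), 94.2 (73.4 to 119) and 440 CPM (352 to 543), in 29, 20 and 16 cells. No cell at 13w held more than 18 of its 86 UMIs. Sele and Vcam1 completed the 3, with values given above. Selp, the selectin of venules, was seen in 0, 1 and 4 cells, and Vwf, the clotting factor carrier, in 4, 2 and 7 cells.

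Genes of antigen presentation and the interferon response were higher at 13w in most measured members of the list. Of 7 measured genes, 3 were higher at P0 than at E16.5 and none was lower, with a list median of 0.87 log2 units. Background shares were 11.6% and 7.52%, and 4 of 7 were higher in the strict set. At 13w against P0, 7 of 9 were higher and none was lower, against a background of 11.7% and 9.76%, with a median of 1.75. These 13w counts also held in the strict set and with TMM factors. H2-K1, a class I chain, stood at 17.2 (9.43 to 28.9), 53.8 (38.4 to 73.3) and 537 CPM (439 to 650). It was seen in 9 of 57, 15 of 40 and 24 of 28 cells, and the highest cell held 274, 380 and 1913 CPM. H2-D1, another class I chain, stood at 192, 352 and 1187 CPM, and their common light chain B2m at 317, 326 and 962 CPM. Class I genes are near-identical to one another, so reads could be shared between them in counting.

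Ly6c1 and Ly6a, surface proteins of mouse endothelium, followed the same order. Ly6c1 stood at 110 (88.0 to 135), 246 (212 to 285) and 1227 CPM (1077 to 1393), in 33, 32 and 24 cells. Ly6a, also known as Sca-1, stood at 45.6, 219 and 951 CPM. Thinned to 3000 UMIs, Ly6c1 was seen in 24.1%, 53.8% and 81.8% of endothelial cells and in 0.0461%, 0.104% and 6.42% of the other cells. The other kept cells also had higher levels at 13w than at P0, with a median log2 ratio of 2.81 over the same 9 genes. Cd74, the class II invariant chain, was at 0, 1 and 3 UMIs.

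**Figure D5:**
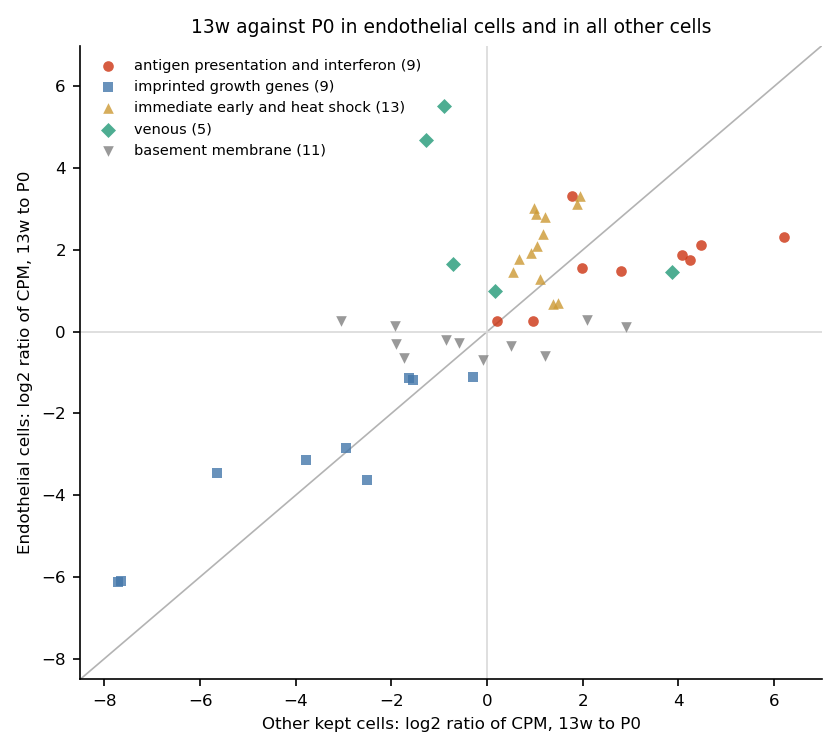
Log2 ratio of CPM at 13w to P0 for measured genes of 5 lists, in the other kept cells (horizontal axis) and in endothelial cells (vertical axis); the diagonal marks equal ratios. Antigen presentation genes lay above 0 in both, imprinted genes below 0 in both, and Sele and Vcam1 lay above 0 in endothelial cells and below 0 in the other cells.

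Signals that endothelial cells send to their surroundings included several that were highest at P0. Of 8 measured angiocrine genes, 4 were higher at P0 than at E16.5 and 1 was lower, with a list median of 1.02. Background shares were 11.6% and 7.52%, and the strict set gave 5 of 8 higher and 1 lower. Igfbp3, which binds IGF and is made by growing vessels, stood at 644 (590 to 702), 1513 (1426 to 1604) and 251 CPM (185 to 331). It was seen in 38 of 57, 37 of 40 and 12 of 28 cells, and the cell medians were 219, 1477 and 0 CPM. Edn1, the vasoconstrictor endothelin, stood at 40.7, 186 and 61.4 CPM. Igfbp7 stood at 788, 2526 and 3641 CPM and differed in the same direction in the other cells (69.9, 178 and 1570 CPM). Igfbp4 was lower at P0, at 413, 144 and 143 CPM, as in the other cells (255, 96.7 and 83.1 CPM). Kitl, the ligand of Kit, stood at 181, 191 and 266 CPM.

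Of 9 measured at 13w against P0, 1 angiocrine gene was higher and 2 were lower (Edn1 and Igfbp3), against a background of 11.7% and 9.76%. The sign of the list median depended on the scaling. Igfbp5, the higher one, came from 5 cells, of which 1 held 35 of 74 UMIs. It stayed under 100 CPM in the strict set, and it stood at 298 CPM in the other cells.

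For vascular tone, flow response and clotting, 6 of 11 measured genes were higher at P0 than at E16.5 and 1 was lower, with a list median of 1.02. Background shares were 11.6% and 7.52%, and the strict set gave 7 of 10 higher and none lower. Ace, which makes angiotensin II, stood at 8.62 (3.47 to 17.8), 102 (80.5 to 128) and 56.3 CPM (28.1 to 101), in 6, 24 and 7 cells. Klf4, a flow-responsive factor, stood at 144, 292 and 465 CPM, and its relative Klf2 at 255, 499 and 501 CPM. Ptgis, the prostacyclin synthase gene, had 70 of 120 UMIs at P0 in 1 cell. Tfpi, an inhibitor of tissue factor, was lower at P0, at 124, 49.8 and 51.1 CPM.

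Of 10 genes of this list measured at 13w against P0, 2 were higher and 3 were lower, against a background of 11.7% and 9.76%. In the strict set 1 was higher and 2 were lower. Ptgis, one of the 3 lower, had a log2 ratio of -0.27 in the strict set and -0.68 without the cell with the most UMIs. Thbd, the thrombin receptor that starts protein C activation, stood at 62.8, 101 and 286 CPM. Entpd1, which breaks down extracellular ATP, stood at 142, 208 and 430 CPM. Ednrb, an endothelin receptor, stood at 150, 106 and 40.9 CPM. Nos3, the endothelial nitric oxide synthase, stood at 38.2, 60.5 and 86.9 CPM and so was not measured at the 100 CPM threshold.

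Cell cycle genes were lower at P0 than at E16.5 in 9 of 11 measured cases, against a background of 7.52%, with a list median of -1.70. The strict set also gave 9 of 11, but with each cell weighted equally 4 of 11 were lower, with a median of -0.96, and the Top2a log2 ratio was -0.87. Top2a, which untangles replicated DNA, stood at 257, 65.9 and 56.3 CPM, and Stmn1, a microtubule regulator of mitosis, at 649, 147 and 118 CPM. The other kept cells had a median of -1.14 over the same genes. The share of cells with a UMI of Mki67 or Top2a, each cell thinned to 3000 UMIs, was 27.8% (15 of 54, 16.5 to 41.6), 20.5% (8 of 39, 9.30 to 36.5) and 9.09% (2 of 22, 1.12 to 29.2) in order of age. These intervals overlapped and the cells were few, and with 1 library per age a difference in the share was not tested. Unthinned, the shares were 42.1%, 32.5% and 17.9%, and the thinned shares of the other cells were 29.4%, 15.2% and 8.69%. Ube2c was, at 13w against P0, the only 1 of 6 past 2-fold, and 26 of its 27 UMIs came from 1 cell. With equal weight per cell, 3 of 7 were lower and none was higher in that comparison, with a median of -0.69. The strict set gave 1 of 7 higher and 1 lower.

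Imprinted growth genes were lower at 13w than at P0 in 9 of 9 measured cases, against a background of 9.76%. The list median was -3.13, and that of the other kept cells over the same genes was -2.95. The strict set gave 8 of 8. Igf2, the fetal growth factor, stood at 700, 1067 and 15.3 CPM, with 568, 793 and 3 UMIs. The noncoding RNA gene H19 stood at 1254, 2102 and 30.7 CPM. Mest, which like Dlk1 was also lower at P0 than at E16.5, stood at 1865 (1772 to 1961), 564 (511 to 620) and 51.1 CPM (24.5 to 94.1). The Mest log2 ratio at P0 to E16.5 was -1.73 in endothelial cells and -0.45 in the other cells. Mest cell medians were 1984, 456 and 0 CPM. Of 10 genes measured at P0 against E16.5, 1 was higher (Peg3) and 2 were lower (Mest and Dlk1), against a background of 11.6% and 7.52%. Peg3 stayed under 2-fold in the strict set at 0.48.

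Immediate early and heat shock genes, which respond within minutes to stress and also to tissue digestion, were higher at 13w than at P0 in 11 of 13 measured cases, against 11.7% of all genes. The list median was 2.09, and that of the other kept cells over the same genes was 1.10. Fos stood at 254, 292 and 1243 CPM, Egr1 at 99.8, 87.4 and 609 CPM, and Hspa1a at 43.1, 32.3 and 322 CPM. The strict set gave 10 of 13, and equal weight per cell gave 8 of 13. Mitochondrial shares had cell medians of 2.81%, 3.59% and 4.27%. The part of handling in these values was not tested. Of 8 measured at P0 against E16.5, 1 was higher (Atf3), against a background of 11.6%.

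Of hypoxia and glycolysis genes, none of 7 passed 2-fold at P0. In the strict set 1 of 7 was higher, against 12.2% of all measured genes of that set. At 13w 3 of 7 were lower and 1 was higher, against a background of 9.76% and 11.7%. The 3 lower ones were the glycolysis genes Pgk1, Aldoa and Eno1. Of these, Pgk1 alone passed 2-fold in the strict set (-1.69). Chondrocyte genes were lower in the same comparison in 8 of 9 cases, and their part in these values was not tested. The higher one, Ndrg1, a hypoxia-responsive gene, fell short of 2-fold in the strict set (0.92) and with TMM factors (0.98). Epas1, the endothelial hypoxia factor HIF-2 alpha, stood at 119, 211 and 343 CPM, and Hif1a at 123, 174 and 174 CPM.

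The single genes with the largest ratios add to these lists. They were ranked among genes seen in at least 25% of endothelial cells of the higher library and at least 2-fold higher there than in the other cells. At P0 against E16.5 the 10 highest included S100a6, Tppp3, Ace, Ildr2, Adgrg1, Aqp1, Plec, Bpgm and Ly6a. S100a6, a calcium-binding protein gene, stood at 320, 5424 and 5994 CPM, in 39 of 57 cells and then in all 40 and all 28. It stood at 575, 759 and 2359 CPM in the other cells. Tppp3, a tubulin-binding protein gene, stood at 35.7, 503 and 373 CPM. Plec, which encodes the linker protein plectin, stood at 110, 591 and 563 CPM. Adgrg1, an adhesion receptor gene, stood at 18.5, 109 and 86.9 CPM.

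The 10 lowest at P0 were Fam167b, Kcne3, Asb4, Dok4, Arhgap18, Marcksl1, Aplnr, Cotl1, Akap12 and Ralgps2. Fam167b stood at 212, 25.6 and 133 CPM, in 39, 8 and 8 cells. Asb4, known from vessel development, stood at 106 and 16.1 CPM and had no UMI at 13w. Arhgap18, a regulator of RhoA in endothelial alignment, stood at 175, 34.97 and 40.9 CPM, and Marcksl1, an actin regulator, at 329, 79.4 and 35.8 CPM. Fam167b, Kcne3, Asb4 and Dok4 stood at 2.09 CPM or below in the other cells of E16.5.

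At 13w against P0 the 10 highest were H2-Q7, H2-Q4, Apoe, Itih5, Hspa1a, H2-K1, Clu, Nr4a1, Zfp36 and Myof. Itih5, which stabilises hyaluronan in matrix, stood at 8.62, 33.6 and 501 CPM, in 5, 15 and 15 cells. Clu, a secreted chaperone gene, stood at 9.85, 33.6 and 297 CPM. Apoe, of lipid transport, stood at 25.9, 29.6 and 547 CPM, but 64 of its 107 UMIs at 13w came from 1 cell. H2-Q7 had 12 of 21 UMIs in 1 cell.

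The 10 lowest at 13w were Gpihbp1, Tubb2b, Igfbp3, Lpar4, Ildr2, Lgals9, Ucp2, Sox11, Filip1l and Bpgm. Tubb2b, a tubulin gene, stood at 76.4 and 120 CPM and had no UMI at 13w, so with a floor of 3 UMIs its log2 ratio was -2.96 or lower. Lpar4, a lysophosphatidic acid receptor gene, stood at 177, 230 and 51.1 CPM. Sox11, a fetal transcription factor, stood at 165, 120 and 30.7 CPM, and in the other cells at 105, 31.3 and 0.151 CPM. Ucp2, a mitochondrial carrier gene, stood at 96.1, 268 and 66.5 CPM, and Bpgm, of red cell glycolysis, at 22.2, 113 and 30.7 CPM. Bpgm and Ildr2, named in both directions, were seen in 21 and 23 of 40 cells at P0.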

How the data were processed

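Single-cell RNA was counted in 3 pooled libraries, 1 per age (E16.5, P0 and 13w), with 5458, 4853 and 8899 barcodes. The authors deposited filtered matrices of raw UMI counts over 32285 genes, which per the file headers came from Cell Ranger 6.1.2, on GRCm39 per the submitters' processing notes. Gene names came from the files; promoters came from a RefSeq table on GRCm38.p6, and coordinates of the 2 builds were not mixed. The members and gene lists were chosen with earlier results of these data known. Per library, UMIs were summed over endothelial cells and over all other kept cells and divided by their total (CPM). With 1 library per age there was no test: a difference was a ratio of at least 2 at 100 CPM or more, with an exact conditional binomial 95% interval for ratios, Poisson for CPM and Clopper-Pearson for shares. A gene with 0 UMIs was set to a floor of 3 UMIs per group. The ratio step was tested on simulated data. Shares of cells with a UMI were also taken after thinning each cell to 3000 UMIs, which left out 3, 1 and 6 endothelial cells. Doublets were scored with Scrublet in scanpy 1.11.5, whose automatic threshold marked at most 0.132% and was taken not to have worked; cells were kept, and an alternative left out the 192, 136 and 571 highest scores, 5, 5 and 1 of them endothelial. Named genes were the 10 largest ratios in each direction per comparison, the 15 leading genes against other cells, up to 4 per list and the rule genes; others are list genes past 2-fold or were singled out after seeing their values. One gene that the rule names is not reported here. Alternatives changed the rule, filters, CPM minimum, weighting and scaling (edgeR 4.0.16, DESeq2 1.42.0, used for factors only).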

Additional observations from a re-analysis of the deposited data

Results flagged for a closer look

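For 3 genes, 5 ratios went in opposite directions in endothelial cells and in all other kept cells of the same libraries, past 2-fold in both; with 1 library per age the difference was not tested. For P0 against E16.5, the Bpgm log2 ratio was 2.35 in endothelial cells and -1.16 in the other cells, and that of Ucp2 was 1.48 and -1.46. For 13w against P0, the Bpgm log2 ratio was -1.88 and 1.60, that of Ucp2 was -2.01 and 2.20, and that of Lgals9, a galectin gene, was -2.06 and 1.53. The 2 comparisons share the P0 library. Bpgm rested on 18, 84 and 6 UMIs in endothelial cells at E16.5, P0 and 13w, Ucp2 on 78, 199 and 13, and Lgals9 on 68, 95 and 6.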

How the results depend on the processing

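No paired analysis was possible because each age has 1 library, and for the same reason no replicate could be left out. The shares of endothelial cells kept their order of ages under every rule and filter tried. Counts of genes past 2-fold followed the CPM minimum: for P0 against E16.5, 407 higher and 333 lower at 50 CPM and 770 and 806 at 20 CPM, in place of 226 and 146 at 100 CPM; for 13w against P0, 546 and 385 at 50 CPM and 1293 and 843 at 20 CPM, in place of 235 and 196. With each cell thinned to 3000 UMIs 304 genes were higher and 246 lower at P0, and 339 higher and 303 lower at 13w. Without thinning, the share of cells with Mki67 or Top2a was 42.1% at E16.5. Of named genes, 3 changed direction at 13w against P0 without the cell with the most UMIs: Ets2 (-0.0786), Esm1 (-0.18) and Ube2c (-3.12); Esm1 also did with equal weight per cell (-0.00965), and its cause was not tested. In the strict set, 3 of 42 named genes past 2-fold at P0 and 8 of 53 at 13w no longer passed it, and none reversed. Without the highest Scrublet scores, 4 of 42 and 10 of 53 no longer passed it, with equal weight per cell 4 and 7, and without the cell with the most UMIs 2 and 10. All these counts use the size of the ratio alone, without the 100 CPM minimum. Lpl and Igfbp5, which fell under 100 CPM in the strict set, were therefore not counted as lost there. Ube2c, which changed direction without its top cell, was not counted as lost in that setting either. At 13w a gene needs about 20 UMIs over 28 cells to reach 100 CPM, which limits every adult value.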
